A study of Mus musculus with 12 samples.

Results

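Marginal zone (MZ) B cells that carried 1 floxed Bcl6 allele were compared with MZ B cells that carried none. The members of this comparison are the 2 MZ arrays labelled Bcl6(+/flox) and the 2 MZ arrays labelled Bcl6(+/+), 4 of the 12 arrays of the series, chosen by their genotype and cell type labels. The series measured total RNA of sorted splenic B cells from female C57BL/6 mice aged 10 weeks, with 2 arrays for each of 3 Bcl6 genotypes in MZ and in follicular (FO) cells. All mice, controls included, were heterozygous for mb1-cre, which expresses Cre recombinase throughout the B lineage from the locus of the B cell receptor subunit CD79a. The +/flox mice had 1 Bcl6 allele that Cre can delete, the flox/flox mice had 2 and the +/+ mice had 0. MZ cells were sorted as B220+AA4.1-CD21highCD23low after magnetic depletion with antibodies that bind, among others, B1 cells, plasma cells, myeloid cells, erythroid cells and T cells. Whether both arrays of a genotype derive from different mice is not stated in the labels, so every p-value reflects the scatter of these samples alone, and that scatter may be technical.

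BCL6 is a zinc finger repressor with a BTB domain that recruits corepressors such as NCOR and BCOR to its target genes. It is best known for holding germinal centre B cells in their programme, where it restrains genes of activation, cell cycle arrest, DNA damage response and plasma cell differentiation, and it also binds and represses its own gene. MZ B cells lie at the border of the splenic white pulp, depend on Notch2 signalling and respond rapidly to blood-borne antigen, while FO B cells recirculate through follicles. The comparison asks whether RNA levels in this naive-type population differ when a single allele can be lost.

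The 4 arrays carried the pattern of MZ B cells. Cr2, which encodes the CD21 of the gate, was at 14.59 and 14.84 on the +/flox arrays, against 14.38 and 14.88 on the +/+ arrays, in log2 units of the deposited expression value. Fcer2a, the CD23 that the gate selects against, was at 8.85 and 9.50 on the +/flox arrays, against 9.36 and 9.40 on the +/+ arrays, and at 13.63 to 14.25 on the FO arrays of the same genotypes. The mean of 10 pan B cell markers was 13.08 and 13.18 on the +/flox arrays, against 12.86 and 13.21 on the +/+ arrays. T cell, NK cell, dendritic cell, platelet and stromal markers were mostly within 0.5 log2 units of the array minimum of 2.22 (10 of 13, 7 of 9, 9 of 11, 8 of 8 and 11 of 12) on all 6 MZ arrays.

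The +/+ replicate 1 array stood apart from the other 3. Its Gapdh control probe sets differed by 6.90 log2 units between the 3′ and the 5′ end of the transcript, against -0.20 to 0.63 on the other 11 arrays of the series, and its actin difference was 2.19, against 0.64 to 1.07. Over the 9307 tested genes its correlation with +/+ replicate 2 was 0.944, while +/flox replicate 2 and +/+ replicate 2 correlated at 0.995 and the 2 +/flox arrays at 0.984. The +/+ arrays were 1 log2 unit or more apart for 1351 genes and the +/flox arrays for 313. Neutrophil markers averaged 2.42 and 2.41 on the +/flox arrays, against 4.08 and 2.41 on +/+ replicates 1 and 2, and 5 of the 11 were within 0.5 of the minimum on every MZ array. Among them S100a8, a calcium-binding protein abundant in neutrophils, was at 2.50 on both +/flox arrays, against 8.11 and 2.46 on the +/+ arrays. Erythroid markers averaged 3.18 and 3.12 on the +/flox arrays, against 3.99 and 3.07 on the +/+ arrays, with 6 of 11 within 0.5 of the minimum throughout. The part of the 5′ signal and of these markers in the results was not tested, so the main values are also given against +/+ replicate 2 alone. The fit without +/+ replicate 1, in which the lone +/+ array is assumed to vary like the other groups, called 0 genes by limma, with 104 at p under 0.05 before adjustment.

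Bcl6 RNA was not lower in +/flox MZ cells at the probe set that detected it there. This probe set, 1421818_at, read 9.44 and 9.38 on the +/flox arrays and 9.95 and 10.37 on the flox/flox arrays, against 8.29 and 8.81 on the +/+ arrays. Both +/flox arrays lay above both +/+ arrays and below both flox/flox arrays. The difference was 0.86 ± 0.23 (SE; limma adjusted p = 0.792 over the tested genes), and it was 0.60 against +/+ replicate 2 alone. In FO cells the +/flox mean of this probe set was 12.01 and the +/+ mean 11.80. The second probe set, 1450381_a_at, was at the minimum of 2.22 on every MZ array and so gives no comparison there. In FO cells it read 4.93 and 4.86 on the +/flox arrays, against 4.94 and 5.61 on the +/+ arrays. That FO difference was -0.38, opposite in direction to the first probe set. The sources used here state neither the exons that Cre removes nor those a probe set covers, and the genotype labels therefore cannot be checked from Bcl6.

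To show the sequence context of the floxed gene and of the gene that passed the test, the 300 bases around an annotated start (250 before and 50 after it, RefSeq, build GRCm38.p6) are given 5′ to 3′ on the gene's strand. Capitals mark a match to TTCCTNGAA, a form of the BCL6 binding motif with any base at N, searched on both strands. Bcl6 had more than 1 window, and the sequence printed is that of the window with a match. This window, chr16:23981234-23981533 on the minus strand, held a match that begins 168 bases before its start.
Bcl6: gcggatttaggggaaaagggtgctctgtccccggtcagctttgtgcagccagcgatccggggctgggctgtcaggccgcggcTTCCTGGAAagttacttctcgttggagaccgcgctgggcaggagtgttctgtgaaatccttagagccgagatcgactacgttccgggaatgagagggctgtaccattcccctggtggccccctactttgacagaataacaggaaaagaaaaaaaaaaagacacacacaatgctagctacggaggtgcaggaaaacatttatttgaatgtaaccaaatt
The Grip2 window, chr6:91807344-91807643 on the minus strand, held no match.
Grip2: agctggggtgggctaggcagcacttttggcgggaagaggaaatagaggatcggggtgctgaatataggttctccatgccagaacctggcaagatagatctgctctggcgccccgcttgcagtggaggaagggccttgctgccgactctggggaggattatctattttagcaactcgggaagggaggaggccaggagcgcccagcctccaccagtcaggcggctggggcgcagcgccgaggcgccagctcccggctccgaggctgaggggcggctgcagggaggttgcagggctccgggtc
Of all 32851 promoter windows, 522 (1.59%) held the motif. Among the 47 genes named by rule, Bcl6 as the floxed gene included, 39 had a window. Of their 54 windows 2 held a match, from Bcl6 and Fam53b. The other Bcl6 window, chr16:23988803-23989102, lies upstream of the printed window on the gene's strand and held none. The window of Chst11, chr10:82985247-82985546 on the plus strand, also held none. A match describes letters only and is not a measured binding site.

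A single gene passed the test between +/flox and +/+ MZ cells. Grip2, a scaffold protein with PDZ domains known from its binding to glutamate receptors in neurons, fell in +/flox MZ cells. It was at 4.17 and 4.48 on the +/flox arrays and 4.73 and 4.30 on the flox/flox arrays, against 6.22 and 6.17 on the +/+ arrays, and the +/flox and +/+ arrays did not overlap. Group means were 4.32 ± 0.21 in +/flox and 6.19 ± 0.03 in +/+ (SD, n = 2 each). The change was -1.87 ± 0.18 (SE; limma adjusted p = 0.0368), and -1.85 against +/+ replicate 2 alone. In bulk RNA, fewer cells of a type that express the gene and less RNA per cell cannot be told apart. Grip2 was the 1 gene called among 9307 tested, a share of 0.0107%, and 287 genes had p under 0.05 before adjustment, 69 of them higher and 218 lower in +/flox.

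The Grip2 call rests on more than the 4 arrays. All FO arrays read Grip2 at their minimum, with an SD of 0, which lowers the residual spread that the 12-array model shares between groups, so its p can be too small. Its adjusted p was 0.148 to 0.161 without any 1 FO array, 0.457 without +/+ replicate 1, 0.595 and 0.198 without +/flox replicates 1 and 2, and 0.830 with the 6 MZ arrays alone. The number of called genes was 0 without +/+ replicate 1 and 415 without +/+ replicate 2, which leaves +/+ to the array of weak 5′ signal.

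Below Grip2, genes were named by p among those without overlap whose higher group averaged 6 or more. Those lower in +/flox were Chst11, Renbp, Cd83, Tbc1d32, Fam214b, Creld2, Pdzd2, Usp30, Dna2, Arhgap24 and Mmd. None passed the test (limma adjusted p = 0.792 for each), and absence of overlap helped to choose them, so it is no finding about them. They are not the next genes by p alone: outside this rule the smallest limma adjusted p after Grip2 was 0.479. The groups did not overlap for 1660 tested genes (17.8%) with both +/flox arrays lower and for 967 (10.4%) with both higher. Chst11, a sulfotransferase that modifies chondroitin chains, was at 4.75 and 4.95 on the +/flox arrays and 4.01 and 3.41 on the flox/flox arrays, against 6.04 and 6.27 on the +/+ arrays. Its +/flox difference was -1.31 ± 0.26 (SE), and -1.42 against +/+ replicate 2 alone. For Chst11 the +/flox arrays lay between the flox/flox and the +/+ arrays.

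Renbp, an epimerase of N-acetylglucosamine metabolism that binds renin, was at 5.81 and 5.35 on the +/flox arrays, against 6.68 and 6.56 on the +/+ arrays, a difference of -1.04 ± 0.21, and -0.98 against +/+ replicate 2 alone. Cd83, a surface protein of activated B cells that stabilises MHC class II, was at 10.77 and 10.94 on the +/flox arrays and 10.57 and 10.62 on the flox/flox arrays, against 11.84 and 11.44 on the +/+ arrays. The Cd83 difference was -0.78 ± 0.18, and -0.58 against +/+ replicate 2 alone. Creld2, an endoplasmic reticulum protein induced by unfolded proteins, was at 8.69 and 8.77 on the +/flox arrays, against 9.45 and 9.15 on the +/+ arrays. Mmd, a membrane protein, was at 8.96 and 8.83 on the +/flox arrays, against 9.46 and 9.47 on the +/+ arrays, and differed by -0.58 from both +/+ arrays and from replicate 2 alone. The remaining genes included Usp30, a deubiquitinase of mitochondria (-0.69, and -0.45 against replicate 2), Dna2, a nuclease and helicase of DNA replication (-0.77 and -0.58), and Arhgap24, a GTPase-activating protein for Rac (-0.73 and -0.55).

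By the same rule, the genes with the smallest p that were higher in +/flox were Tnip2, Bcl6, 1700048O20Rik, Traf3ip1, Ube2e2, Zmat5, Acy1, Fam53b, Exosc5, Polr3f, Polr1b and Cd1d2. Each had a limma adjusted p of 0.792. Tnip2, an adaptor that binds A20 and inhibits NF-kB, was at 6.89 and 6.38 on the +/flox arrays and 6.59 and 6.37 on the flox/flox arrays, against 5.93 and 5.84 on the +/+ arrays. Its difference was 0.75 ± 0.18 (SE), and 0.80 against +/+ replicate 2 alone. Ube2e2, a ubiquitin-conjugating enzyme, was at 8.52 and 8.11 on the +/flox arrays, against 7.87 and 7.24 on the +/+ arrays, a difference of 0.76 ± 0.24. The RNA polymerase subunits Polr3f and Polr1b differed by 1.34 ± 0.45 and 1.13 ± 0.40, but by 0.70 and 0.49 against +/+ replicate 2 alone. Polr3f read 8.40 and 8.26 on the +/flox arrays, against 6.36 and 7.63 on the +/+ arrays, and its +/+ arrays lay more than 1 log2 unit apart. Cd1d2, a lipid-presenting relative of Cd1d1, was at 6.55 and 6.52 on the +/flox arrays, against 5.36 and 6.21 on the +/+ arrays, and its probes may share signal with its near-identical neighbour.

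**Figure D1:**
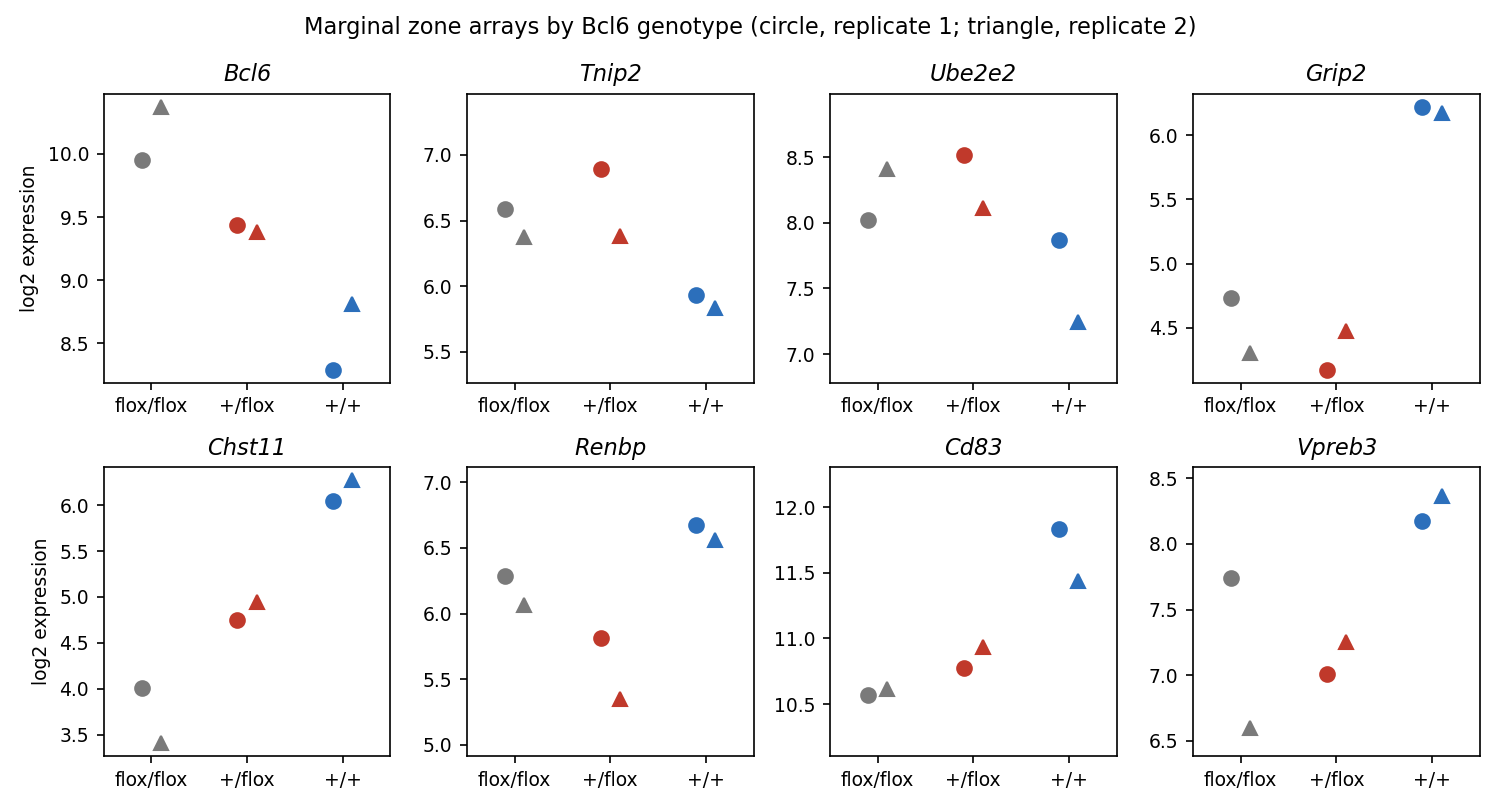
Log2 expression of 8 named genes on the MZ arrays, with the genotypes flox/flox, +/flox and +/+ along the horizontal axis and 1 point per array (circle, replicate 1; triangle, replicate 2). Grip2, at 4.17 and 4.48 on the +/flox arrays, sits well below the +/+ arrays at 6.22 and 6.17, while Bcl6 lies highest in flox/flox.

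With +/+ replicate 2 as the only control, large differences were few and mostly downward. The +/flox mean was 1 log2 unit or more higher for 20 of 9307 genes (0.215%) and lower for 54 (0.58%). These counts depended on the +/flox array: replicate 1 alone gave 111 higher and 190 lower, and replicate 2 alone 9 higher and 36 lower. Of the 54, 16 were also lower by 1 unit or more on +/flox replicate 2. Against +/+ replicate 1 alone the counts were 638 higher (6.86%) and 722 lower (7.76%). The median difference of all tested genes was -0.02 against replicate 2, -0.09 against replicate 1 and -0.05 against both.

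Genes were named on this scale if the 2 +/flox arrays lay within 0.5 of each other and the difference had the same direction against replicate 1. The higher group also had to average 6 or more, with both +/+ arrays in the +/+ mean. The 8 genes per direction farthest from replicate 2 were kept. Those lower were Grip2, Il10, Chst11, Vpreb3, Dusp10, Rasd1, Mapk11 and Renbp. Of these, Il10, Dusp10 and Rasd1 read under 6 on +/+ replicate 2, with Rasd1 at 8.11 and 5.16 on the +/+ arrays. They reached the average of 6 only through +/+ replicate 1, the array of weak 5′ signal. Vpreb3, a chaperone-like partner of the pre-B cell receptor, was at 7.01 and 7.25 on the +/flox arrays and 7.74 and 6.60 on the flox/flox arrays, against 8.18 and 8.37 on the +/+ arrays, a difference of -1.24 against replicate 2. Both +/+ arrays gave a similar value for Vpreb3 and Grip2, unlike Il10. Il10, the anti-inflammatory cytokine, was at 3.42 and 3.85 on the +/flox arrays, against 9.23 and 5.31 on the +/+ arrays. Dusp10, a phosphatase of stress-activated MAP kinases, was at 4.09 and 4.47 on the +/flox arrays, against 9.95 and 5.47 on the +/+ arrays. Mapk11, the beta form of p38, was at 4.89 and 5.20 on the +/flox arrays, against 6.29 and 6.08 on the +/+ arrays.

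Those higher were Adamdec1, Ube2e2, Lgalsl, Mllt11, 1700048O20Rik, Lmbr1, Pex10 and Spic. Adamdec1, a metalloprotease-like gene, was at 6.48 and 6.12 on the +/flox arrays, against 5.99 and 4.92 on the +/+ arrays, and was 1.38 above replicate 2. Lgalsl, a galectin-related gene, was at 6.85 and 6.79 on the +/flox arrays and 5.88 and 5.89 on the flox/flox arrays, against 5.91 and 5.86 on the +/+ arrays. For Lgalsl the flox/flox arrays therefore read as the +/+ arrays did. Spic, an ETS factor of red pulp macrophages and of B cells, was at 7.21 and 6.78 on the +/flox arrays, against 5.81 and 6.24 on the +/+ arrays. The macrophage and monocyte list averaged 4.86 and 4.32 on the +/flox arrays, against 4.77 and 4.33 on the +/+ arrays, with 6 of 17 within 0.5 of the minimum on all MZ arrays, and its part in the Spic value was not tested.

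**Figure D2:**
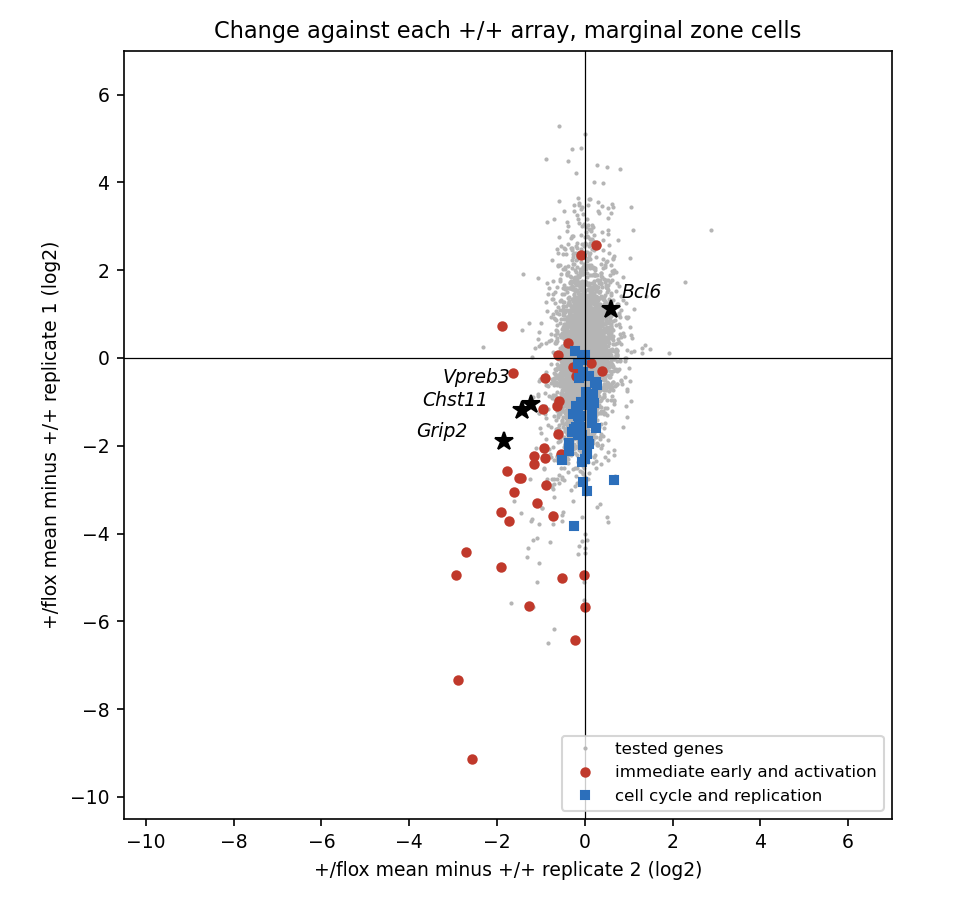
Each point is a tested gene, with the +/flox mean minus +/+ replicate 2 on the horizontal axis and the +/flox mean minus +/+ replicate 1 on the vertical axis, both in log2 units. Grip2 lies at -1.85 and -1.89 on both axes, immediate early genes reach far down both axes, and cell cycle genes lie near 0 on the horizontal axis and low on the vertical one.

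Immediate early and activation genes, many of which B cells induce rapidly on stimulation, had the most negative median of the 26 gene lists, against both +/+ arrays and against either alone. Of 42 on the array, 41 were tested, 0 passed the test, 5 had p under 0.05 before adjustment and 37 had a negative difference. In 26 of the 41 both +/flox arrays lay below both +/+ arrays, and in 0 above them, beside 17.8% and 10.4% of all tested genes. The median difference was -1.70, and -0.89 against +/+ replicate 2 alone, beside -0.05 and -0.02 over all tested genes. In FO cells the same genotype comparison went the other way for this list, with a median of 0.52, beside 0 over all tested genes. Of the 54 genes that were 1 log2 unit or more lower against replicate 2, 17 were on this list.

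The activation genes differed between the arrays of each group as well. The mean of the 42 genes on the array was 8.19 and 9.44 on the +/flox arrays and 11.06 and 9.57 on the flox/flox arrays, against 11.19 and 9.78 on the +/+ arrays. The lowest array was +/flox replicate 1 and the highest +/+ replicate 1. Against +/+ replicate 2, the median difference was -1.46 for +/flox replicate 1 and -0.29 for +/flox replicate 2, and on +/flox replicate 2 alone 33 of 41 members were lower, 3 of them by 1 log2 unit or more. The replicate 2 arrays of both genotypes were thus near each other for most of the list.

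Klf4 is on this list although it is known as a Kruppel-like factor of quiescence. It was at 7.21 and 10.38 on the +/flox arrays, against 13.22 and 11.49 on the +/+ arrays. Cd69, the early activation antigen that retains lymphocytes in tissue, was at 8.91 and 10.76 on the +/flox arrays, against 13.56 and 11.56 on the +/+ arrays. Sgk1, a serum-induced kinase, was at 4.57 and 6.83 on the +/flox arrays, against 10.46 and 7.60 on the +/+ arrays. In all 3 genes the groups did not overlap, yet the arrays of each group lay more than 1 log2 unit apart. Jund, a subunit of the AP-1 factor, was at 8.44 and 9.76 on the +/flox arrays, against 11.52 and 10.25 on the +/+ arrays. Cd83 was the list member with the smallest p, and Nfkbiz, an inducible regulator of NF-kB, differed by -1.06 ± 0.46 (SE). The part of differences between single arrays in this pattern was not tested.

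**Figure D3:**
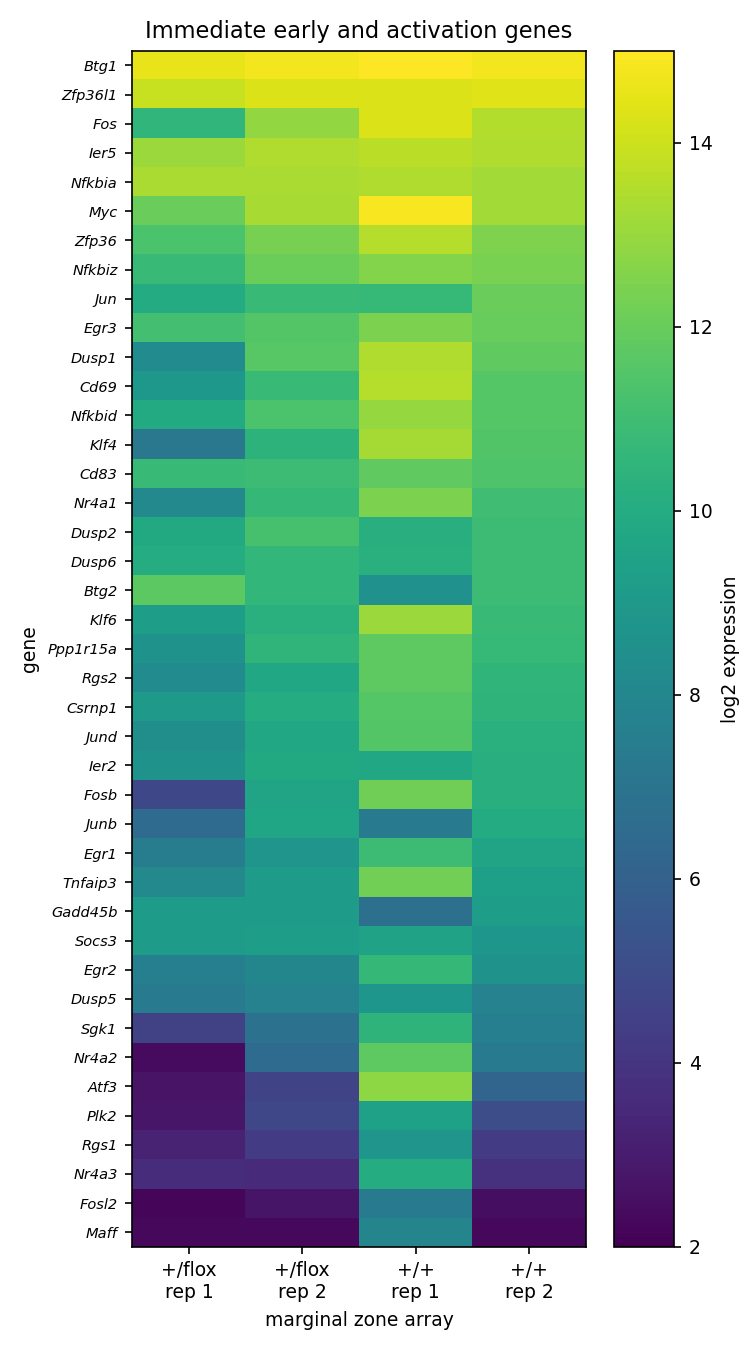
Heat map of log2 expression of the 41 tested immediate early and activation genes (rows) on the 2 +/flox and the 2 +/+ MZ arrays (columns). The +/flox replicate 1 column is darkest, with a mean of 8.34 over these genes, and the +/+ replicate 1 column brightest, at 11.41, while the columns of both replicates 2 look alike, at 9.61 and 9.97.

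Cell cycle and replication genes differed against 1 control array only. Of 47 tested members 46 were negative, with a median of -0.78, but the median was -1.55 against +/+ replicate 1 and -0.05 against replicate 2. In 6 of 47 the +/flox arrays were both below the +/+ arrays, beside 17.8% of all tested genes, and 0 members passed the test. The list mean was 7.22 and 6.96 on the +/flox arrays and 9.0 and 8.0 on the flox/flox arrays, against 8.51 and 7.13 on the +/+ arrays. Pcna, the sliding clamp of DNA polymerases, was at 12.43 and 12.51 on the +/flox arrays, against 13.57 and 12.67 on the +/+ arrays. The mitotic kinesin Kif23 was at 6.61 and 6.15 on the +/flox arrays, against 8.70 and 6.90 on the +/+ arrays. Among 14 tested D-type cyclins and cell cycle inhibitors the median was -0.10 and -0.07 against replicate 2, with 1 member above and 2 below without overlap.

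Published BCL6 targets, which the factor represses, held no called gene. Of 30 listed genes 27 were on the array and 23 tested, of which 0 passed the test, 7 were positive and 16 negative, where 57.6% of all tested genes were negative. The median was -0.45, and -0.18 against +/+ replicate 2 alone, which was -0.33 for +/flox replicate 1 and 0.01 for +/flox replicate 2. Both +/flox arrays were below the +/+ arrays in 8 of 23 and above in 1, beside 17.8% and 10.4% of all tested genes. Several of these genes also belong to the activation list, among them Cd69, Myc and Tnfaip3, the A20 brake on NF-kB. Ccnd2, a D-type cyclin, was at 9.54 and 9.55 on the +/flox arrays and 11.18 and 11.05 on the flox/flox arrays, against 10.56 and 9.93 on the +/+ arrays, so the +/flox and the flox/flox arrays lay on opposite sides of the +/+ arrays.

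Cd80, a costimulatory ligand, was at 5.10 and 5.16 on the +/flox arrays, against 5.72 and 5.44 on the +/+ arrays. Gpr183, the oxysterol receptor that positions B cells, was at 9.64 and 10.21 on the +/flox arrays, against 11.60 and 10.39 on the +/+ arrays. Il18, an inflammatory cytokine, was the 1 target with both +/flox arrays higher, at 9.25 and 9.0 on the +/flox arrays and 9.97 and 10.11 on the flox/flox arrays, against 8.90 and 8.67 on the +/+ arrays. The Il18 difference was 0.34 ± 0.18 (SE). Prdm1, the plasma cell regulator that BCL6 represses, was at 6.21 and 6.64 on the +/flox arrays, against 7.67 and 6.35 on the +/+ arrays, and its groups overlapped. Among the corepressors and related BTB factors, 3 of 23 tested members were above and 5 below without overlap, beside 10.4% and 17.8% of all tested genes. Their median was -0.19, and -0.04 against replicate 2. Hdac4, a class II histone deacetylase that BCL6 binds, was at 5.48 and 6.29 on the +/flox arrays, against 6.51 and 6.77 on the +/+ arrays, and Bcor, a corepressor, overlapped, at 9.11 and 10.04 on the +/flox arrays, against 9.91 and 10.27 on the +/+ arrays.

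As a set, the genes listed for MZ identity were near their +/+ level. Of 26 tested members 3 were above and 4 below without overlap, beside 10.4% and 17.8% of all tested genes. The median was 0.06, and 0.01 against +/+ replicate 2. Cd9, a tetraspanin of MZ cells, was at 11.89 and 11.78 on the +/flox arrays, against 11.87 and 11.97 on the +/+ arrays. S1pr3, a sphingosine 1-phosphate receptor, was at 13.24 and 12.92 on the +/flox arrays, against 11.57 and 12.92 on the +/+ arrays, and Cd1d1, which presents lipids, at 14.27 and 14.37 on the +/flox arrays, against 13.87 and 14.21 on the +/+ arrays. The list member with the smallest p was Vpreb3, which is also on the list of transitional B cell markers. It read higher on the FO than on the MZ arrays of these genotypes, so its difference is not read as loss of an MZ gene. The 18 tested Notch pathway genes, which include the receptor and the Hes and Dtx1 targets of the signal that MZ cells need, had a median of 0.05 and 0.03 against replicate 2, with 0 above and 2 below without overlap. The Notch target Hes5 was at 8.92 and 8.07 on the +/flox arrays, against 6.03 and 8.28 on the +/+ arrays, and thus 0.22 above replicate 2.

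Of 19 FO identity genes 7 were below and 1 above without overlap, beside 17.8% and 10.4% of all tested genes. The median was -0.12, and -0.18 against +/+ replicate 2. Against replicate 2 it was -0.53 for +/flox replicate 1 and -0.05 for +/flox replicate 2, and without +/flox replicate 1 the list median turned to 0.05. Klf2, which keeps lymphocytes quiescent and circulating, was at 9.07 and 10.26 on the +/flox arrays, against 13.39 and 10.89 on the +/+ arrays. Cxcr4, the receptor for the chemokine CXCL12, was at 5.04 and 7.11 on the +/flox arrays, against 11.19 and 7.17 on the +/+ arrays. Ccr7, a homing receptor for the T cell zone, was at 9.10 and 9.57 on the +/flox arrays, against 11.23 and 9.67 on the +/+ arrays. In these 3 genes the distance between the +/+ arrays exceeded the distance from replicate 2 to the +/flox mean. Across 32 migration and adhesion genes, which share Klf2, Ccr7 and Cxcr4 with this list, 8 were below and 1 above, with a median of -0.13 and -0.13 against replicate 2, which was -0.33 for +/flox replicate 1 and 0.01 for +/flox replicate 2.

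Germinal centre genes held the 2 members with the smallest p in opposite directions, Cd83 lower and Bcl6 higher in +/flox. Of 16 tested, 5 were below and 2 above without overlap, beside 17.8% and 10.4% of all tested genes. The median was -0.41, and -0.16 against +/+ replicate 2. Cd86, a costimulatory ligand, was at 8.77 and 9.19 on the +/flox arrays and 8.58 and 8.87 on the flox/flox arrays, against 9.57 and 9.43 on the +/+ arrays, a difference of -0.52 ± 0.19 (SE). Of 14 plasma cell fate genes 5 were below and 0 above, with a median of -0.29 and -0.07 against replicate 2. Irf4, a factor that drives plasma cell differentiation, was at 10.75 and 11.75 on the +/flox arrays, against 13.01 and 11.84 on the +/+ arrays. In the unfolded protein response and secretory list, 9 of 34 were below and 0 above, with a median of -0.14 and -0.16 against replicate 2. Manf, a secreted endoplasmic reticulum protein, was at 11.46 and 11.43 on the +/flox arrays and 11.79 and 11.76 on the flox/flox arrays, against 11.70 and 11.73 on the +/+ arrays, with the arrays of each group close together.

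Signalling genes of B cells had small differences. Of 30 B cell receptor signalling genes 7 were below and 3 above without overlap, beside 17.8% and 10.4% of all tested genes. The median was -0.05, with -0.13 against +/+ replicate 2 and 0.02 without +/flox replicate 1. Rasgrp3, which activates Ras downstream of the receptor, was at 10.68 and 10.88 on the +/flox arrays, against 11.58 and 11.17 on the +/+ arrays. Cd79a, the receptor subunit whose locus carries mb1-cre, was at 10.12 on both +/flox arrays, against 10.70 and 10.62 on the +/+ arrays, and all groups were heterozygous for mb1-cre by their labels. Its flox/flox arrays were at 10.12 and 10.03. Cd79b, its partner, was at 15.38 on both +/flox arrays, against 14.74 and 15.34 on the +/+ arrays.

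Of 21 NF-kB, BAFF and CD40 genes 4 were below and 0 above without overlap, beside 17.8% and 10.4% of all tested genes. The median was -0.11, and -0.18 against +/+ replicate 2. Against replicate 2 it was -0.32 for +/flox replicate 1 and 0.02 for +/flox replicate 2, and without +/flox replicate 1 the list median turned to 0.11. Bcl3, a nuclear IkB protein, was at 8.03 and 7.94 on the +/flox arrays, against 8.46 and 8.32 on the +/+ arrays. Toll-like receptor genes had 5 of 21 above and 2 below, with a median of 0.10 and -0.06 against replicate 2. Cd180, a receptor related to the Toll-like family, was at 9.30 and 9.21 on the +/flox arrays, against 8.82 and 9.06 on the +/+ arrays. Of 20 MHC class II presentation genes 2 were above and 4 below, with a median of 0.04 and -0.05 against replicate 2. Among 18 inhibitory receptors and phosphatases 3 were above and 1 below, with a median of 0.03 and -0.11 against replicate 2.

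**Figure D4:**
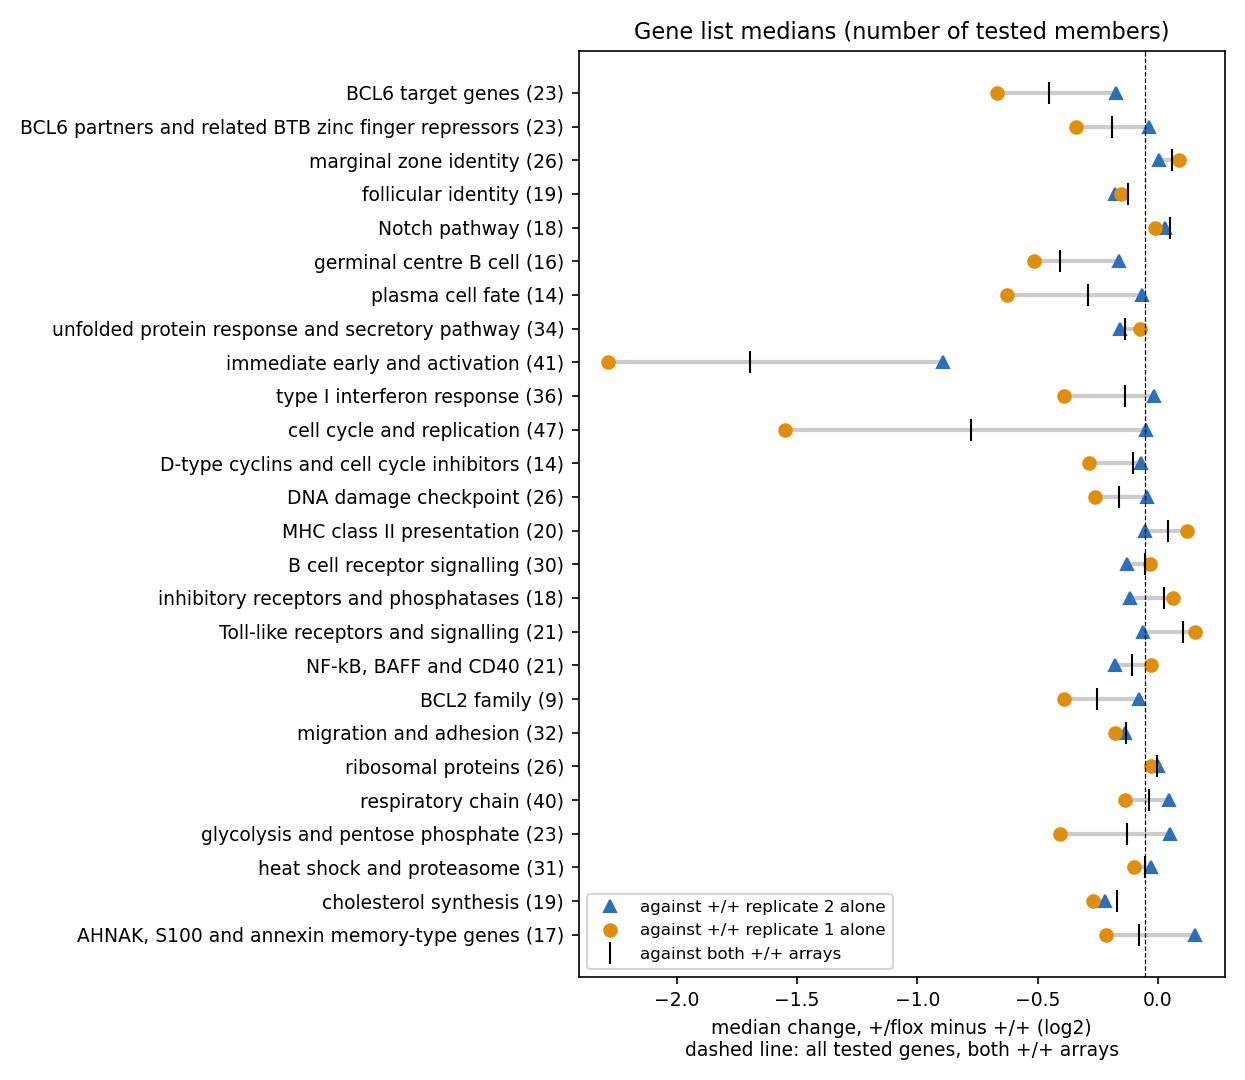
Median +/flox minus +/+ difference (log2, horizontal axis) of each gene list, against +/+ replicate 2 alone (blue triangles), replicate 1 alone (orange circles) and both (black bars), with the number of tested members in brackets. The activation list is farthest left against either control, at -0.89 and -2.29, while the cell cycle list is at -0.05 against replicate 2 and -1.55 against replicate 1.

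The same genotype comparison in FO cells gave 0 called genes by limma, with 184 genes at p under 0.05 before adjustment. The difference between the MZ and the FO change was called for 0 of 9307 genes (0%) by limma, and 388 had p under 0.05 before adjustment. For Grip2 the MZ change minus the FO change was -1.87 ± 0.25 (SE; limma adjusted p = 0.526), with all FO arrays at the minimum. Chst11 was at 5.80 and 5.95 on the FO +/flox arrays, against 6.61 and 6.13 on the FO +/+ arrays, an FO difference of -0.50 beside -1.31 in MZ cells. Tnip2 was at 7.23 and 7.22 on the FO +/flox arrays, against 7.24 and 7.22 on the FO +/+ arrays. Vpreb3 was at 10.41 and 10.48 on the FO +/flox arrays, against 10.33 and 10.66 on the FO +/+ arrays. Apart from Fcer2a and Vpreb3, levels are not compared across the cell types. The minimum was 2.21 on FO and 2.22 on MZ arrays, and the 2 sets may have been normalized separately. The comparisons of Fcer2a and Vpreb3 carry that limit.

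**Figure D5:**
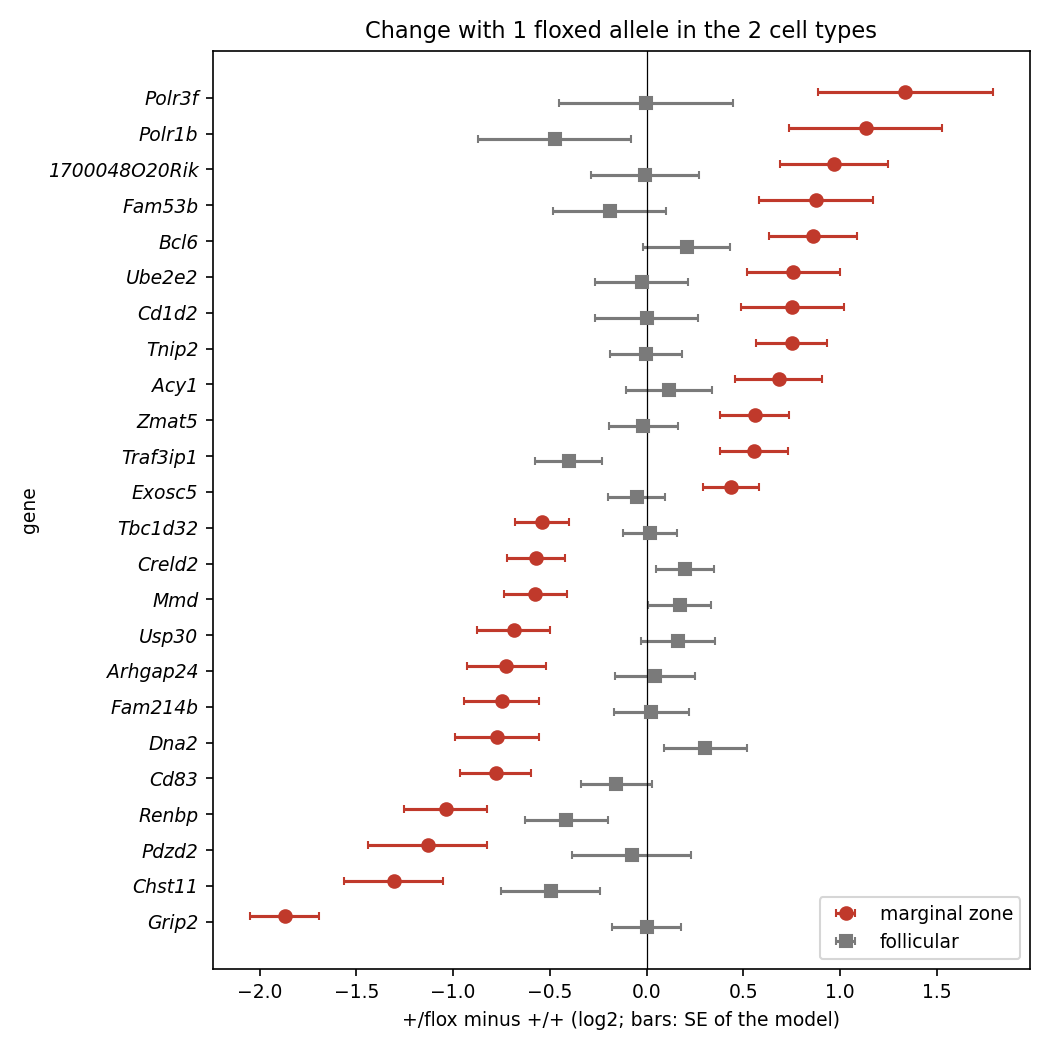
Difference of +/flox minus +/+ (log2, horizontal axis; bars, SE of the model) in MZ cells (red circles) and FO cells (grey squares) for the 12 named genes of each direction whose MZ p was smallest. Grip2 has -1.87 in MZ and 0.00 in FO cells, Chst11 -1.31 and -0.50, and Traf3ip1 0.55 and -0.40.

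Genes called in flox/flox MZ cells were set beside their +/flox values, and both comparisons share the +/+ arrays. Besides Grip2 and Chst11 these were Sh3bgrl2, Slc41a2, Tspan15 and Ms4a7. Slc41a2, a magnesium transporter, was at 7.56 and 7.81 on the +/flox arrays and 5.68 and 5.63 on the flox/flox arrays, against 8.20 and 8.18 on the +/+ arrays. Its +/flox difference was -0.51 ± 0.16 (SE; limma adjusted p = 0.792), with the +/flox arrays between the other genotypes. Sh3bgrl2, a gene of the SH3-binding glutamate-rich family, was at 2.52 and 2.46 on the +/flox arrays and 5.64 and 5.37 on the flox/flox arrays, against 2.58 and 2.52 on the +/+ arrays. Tspan15, a tetraspanin, was at 7.27 and 7.56 on the +/flox arrays and 5.43 and 5.44 on the flox/flox arrays, against 7.37 and 7.73 on the +/+ arrays. Ms4a7, a membrane protein of the CD20 family, was at 7.56 and 7.55 on the +/flox arrays and 6.36 and 6.53 on the flox/flox arrays, against 7.55 and 7.65 on the +/+ arrays. Sh3bgrl2, Tspan15 and Ms4a7 had +/flox differences of -0.06, -0.14 and -0.04, whose direction turned under some settings, while Grip2 was as low on the +/flox as on the flox/flox arrays.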

How the data were processed

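RNA was extracted with TRIZOL and amplified from the 3′ end before hybridization, per the labels' protocols. The authors deposited log2 expression values for Affymetrix probe sets. The submitters' processing notes name GCRMA as the method, without a version. GCRMA corrects background and normalizes quantiles, which gathers dim probe sets at 1 lowest value, and differences near it depend on the background correction. The number of arrays limits the precision.

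Of 45101 probe sets, 34958 had 1 gene symbol and 932 several, which were not used; 34754 matched a RefSeq gene and 0 symbols changed. Each gene was represented by the probe set with the highest mean over 12 arrays (18194 genes), and the 9307 that reached a log2 value of 4 on 2 or more arrays entered the test. The lmFit and eBayes functions of limma 3.58.1 (R 4.3.3) fitted 6 group means to all 12 arrays (6 residual degrees of freedom), with two-sided p-values, Benjamini-Hochberg adjustment over all tested genes and a threshold of 0.05. Differences are +/flox minus +/+ with the model's SE.

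Bcl6 was named first, then called genes, the 12 genes per direction with the smallest p among those whose arrays did not overlap and whose higher group averaged 6 or more, the 8 per direction farthest from +/+ replicate 2 under the conditions given, the 5 per direction with the smallest p for the difference from FO, genes called in flox/flox MZ cells, and up to 6 members per list by p. Single genes outside these rules, such as Myc, Cd9 or Cd1d1, were named as list or gate members after their values were seen. The lists were described by counts and medians without a test. Members, lists and rules were chosen with earlier results of these data known. Promoter sequences are from RefSeq (GRCm38.p6). Alternatives covered the filter, probe sets, variance moderation, array weights, scaling, the arrays fitted, a replicate block and leaving out each array.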

Additional observations from a re-analysis of the deposited data

Results flagged for a closer look

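For 14 of the 47 genes named by rule, both +/flox arrays lay on 1 side of both +/+ arrays in MZ cells. In FO cells they lay on the other side. The same held for 502 of all 9307 tested genes (5.39%). These 502 are among the 967 higher and 1660 lower tested genes without overlap in MZ cells. Naming by smallest p required that absence of overlap, so the share of named genes cannot be compared with that of all genes. The difference of changes (MZ minus FO) was positive for 7 of the 14 named genes and negative for 7. None passed the limma test of that difference, which called 0 genes (388 with p under 0.05 before adjustment, adjusted p = 0.813 for each of these), and 9 were named by a rule that used it.

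Those with the higher MZ change were Pex10, a peroxisome assembly factor, with 1.68, Polr1b with 1.61, Rbm12b2 with 1.48, E330020D12Rik with 1.07, Thada with 1.03, Traf3ip1, a transport protein of cilia, with 0.956, and Pde4dip, a centrosome and Golgi protein, with 0.698. Traf3ip1 was at 6.81 and 6.55 on the MZ +/flox arrays, against 6.10 and 6.15 on the MZ +/+ arrays. In FO cells it was at 6.46 and 6.33 on the +/flox arrays, against 6.96 and 6.64 on the +/+ arrays.

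Those with the lower MZ change were Fut8, which adds core fucose to glycoproteins, with -1.76, Rap1gap2, a GTPase-activating protein for Rap1, with -1.64, Adam19, a metalloprotease, with -1.13, Dna2 with -1.08, E130215H24Rik with -0.772, Creld2 with -0.771 and Mmd with -0.745. Fut8 was at 7.23 and 7.60 on the MZ +/flox arrays, against 8.77 and 7.92 on the MZ +/+ arrays. In FO cells it was at 7.89 and 7.49 on the +/flox arrays, against 7.01 and 6.70 on the +/+ arrays.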

How the results depend on the processing

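The count of called genes, 1 with all arrays, was 5 with no filter on low values (Grip2, Kdm4d, Manf, Robo1 and Zfp389; 360 with p under 0.05 before adjustment) and 7 with every probe set tested on its own (617). It was 0 by limma with trend and robust moderation (290), array weights (157), quantile normalization over all arrays (264), the 6 MZ arrays alone (126, and 120 with the filter set within them) and the 4 MZ arrays alone (82). Leaving out each array in turn gave 0 to 415, the highest without MZ +/+ replicate 2 (251 higher, 164 lower) and 0 without +/+ replicate 1 (104 before adjustment). The adjusted p of Grip2 ranged over the alternatives between 0.00873 and 0.885. Shared replicate numbers are not said to mark shared mice. With a replicate block the count was 0 by limma (479 before adjustment) and the adjusted p of Grip2 0.223. The deviations of same-numbered +/flox and +/+ MZ arrays correlated at -0.03, with 2 arrays a group. Those of flox/flox and +/+ correlated at 0.58, and those of flox/flox and +/flox at 0.04.

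The difference between MZ and FO changes, called for 0 genes, gave 4 with no filter, 8 with every probe set and 0 to 65 without each array, the highest again without MZ +/+ replicate 2. The detected Bcl6 probe set differed by 0.60 to 1.12 without each array and passed at 1.12 without MZ +/+ replicate 2 (limma adjusted p = 0.0478). Differences near 0 turned for Ms4a7 (0.0433 with a common median, and -0.0950 to 0.0096 without each array), Sh3bgrl2 (0.0234 with a common median) and Tspan15 (-0.316 to 0.0428 without each array, positive without MZ +/+ replicate 2 and without MZ +/flox replicate 1). The common median, which moved the median of all genes from -0.05 to 0.03, thus turns small signs. Over 47 named genes and 16 alternatives, 725 values stayed on the same side, 12, all of Grip2, lost the call and 5 turned. The remaining values became called only without MZ +/+ replicate 2, which leaves the array of weak 5′ signal as the lone +/+ array. Of 26 lists, 21 had a negative median, 16 with the common median, 22 with quantile normalization and 17 to 23 without each MZ +/flox or +/+ array, the lowest without +/flox replicate 1. The cause of these shifts was not tested.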

Other observations

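Ribosomal protein, respiratory chain, glycolysis and heat shock lists had medians within 0.1 of that of all genes against +/+ replicate 2. Ribosomal protein genes had a median of 0.00 over 26 tested members, with 3 above and 6 below without overlap. Beside this and each count below, 10.4% of all tested genes were above and 17.8% below. Respiratory chain genes had -0.04 (0.05 against replicate 2; 0 above and 8 below of 40), and glycolysis and pentose phosphate genes -0.13 (0.05; 1 and 5 of 23). Heat shock and proteasome genes had -0.05 (-0.03; 0 above and 11 below of 31). Cholesterol synthesis genes were negative in 13 of 19, and in 16 of 19 against replicate 2, with a median of -0.17 and -0.22, where 57.6% and 55.1% of all tested genes were negative. Hmgcs1, the synthase that supplies the pathway, was at 9.56 and 9.48 on the +/flox arrays, against 9.88 and 9.86 on the +/+ arrays. Cyp51, a sterol demethylase, was at 6.70 and 6.78 on the +/flox arrays, against 7.57 and 7.17 on the +/+ arrays.

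Type I interferon response genes had a median of -0.14 (-0.01 against replicate 2; 1 above and 6 below of 36), DNA damage checkpoint genes -0.16 (-0.04; 3 and 3 of 26) and the BCL2 family -0.25 (-0.08; 1 and 2 of 9). Ahnak, a large scaffold protein, was at 3.91 and 4.55 on the +/flox arrays and 8.26 and 7.02 on the flox/flox arrays, against 6.73 and 5.17 on the +/+ arrays, so the 2 floxed genotypes lay on opposite sides of the +/+ arrays. The list of AHNAK, S100 and annexin genes had a median of -0.08, and 0.16 against replicate 2. B1 cell markers averaged 5.09 and 5.22 on the +/flox arrays, against 6.32 and 5.48 on the +/+ arrays. Spn, the CD43 of the depletion step, was at 4.63 and 3.84 on the +/flox arrays, against 6.30 and 5.04 on the +/+ arrays. Transitional B cell markers averaged 6.63 and 6.72 on the +/flox arrays, against 6.88 and 6.83 on the +/+ arrays.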
